A study of Rattus norvegicus with 6 samples.

Results

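Global expression of 9 genes of insulin signalling and its FoxO effectors was examined in replicating and quiescent rat β-cells. The genes were the adaptors Irs1 and Irs2, the PI3-kinase catalytic subunit Pik3ca, the kinases Akt1, Akt2 and Gsk3b, and the transcription factors Foxo1, Foxo3 and Foxo4. A probe was taken for a gene where the array files gave that symbol as its gene name, which found all 9 of 9 genes with 17 of the 45598 non-control probes. The array held 17960 genes with a RefSeq symbol, each represented by its brightest probe, and comparisons over all genes were made on those.

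Islets of young adult male Wistar rats were cultured overnight with the thymidine analogue EdU at basal glucose, dispersed, stained with Newport Green (a dye that binds the zinc of β-cell granules), fixed, and sorted for large, granular, green cells. Cells that had taken up EdU were the replicating group, and cells without it the quiescent group. No genotype or further treatment distinguished the groups, and both went through the same labelling, fixation and sort. There were 3 islet preparations, each a pool of 4 rats, and each gave 1 replicating and 1 quiescent sample, so that animals cannot be separated within a pool. The EdU gate holds cells that made DNA at any time of the culture, and the quiescent gate holds all other cells of the β-cell gate. Amplified cDNA labelled with Cy3 was hybridised to 6 arrays of 1 slide, and values are log2 intensities after background correction and quantile normalization.

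Insulin and IGF receptors phosphorylate the IRS adaptors, which recruit PI3-kinase, and the lipid it makes brings AKT to the membrane to be activated. AKT phosphorylates GSK3 and so inhibits it, and it phosphorylates FoxO factors, which then bind 14-3-3 proteins and leave the nucleus. FoxO factors in the nucleus are known to activate genes of cell cycle arrest, stress resistance and fasting metabolism, and in β-cells this pathway has been tied to β-cell mass. Since much of this control acts on phosphorylation and location, transcript levels show only a part of it.

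Between 80.8% and 98.4% of probes were well above background on an array, and no member probe was saturated or marked as an outlier spot. The quiescent array of preparation 2 stood apart from the rest, with Pearson's r over all probes of 0.830 and 0.654 to the other quiescent arrays and 1583 outlier spots against 252 to 299 on the other arrays. The quiescent arrays of preparations 1 and 3 also differed, with r = 0.867. That of preparation 3 was closer to replicating arrays 1, 2 and 3, with r = 0.964, 0.943 and 0.969. Values are therefore given per preparation, and without preparation 2 where that turned the direction. The cell labels were checked against marker lists. A gene was called where limma with the preparation as a block gave a log2 ratio of 1 or more in size together with an unadjusted p up to 0.05, the rule the study used. The β-cell hormone genes Ins1 and Ins2 had mean log2 ratios, replicating over quiescent, of 0.25 and 0.42, and 1 of 9 β-cell markers, Mafa at -1.01, was called lower (Mafa was named after its values were seen). All 10 of 10 cell cycle markers were called higher, Mki67 by 2.33. Markers of other cells also differed, with 2 of 6 α-cell genes (Gcg, 2.39), 2 of 3 δ-cell genes, the PP-cell gene Ppy, 3 of 9 stellate cell genes (among them Col3a1, 3.04, and Vim, 1.89), 2 of 7 immune genes and 1 of 7 acinar genes called higher, and 0 of 5 duct and 0 of 6 endothelial genes called. The 9 stellate markers summed to log2 levels of 13.7 to 15.2 on replicating arrays and 12.1 to 12.6 on quiescent arrays, and the 6 α-cell markers to 14.5 to 16.5 and 12.5 to 14.1. The 7 acinar markers summed to 12.9 to 16.3 on replicating arrays and 11.9 to 15.4 on quiescent arrays, a wide range in both groups. Every marker was well above background on at least 1 array. In such sorted populations, fewer cells of a type and less RNA per cell cannot be told apart, and the part of these markers in the results below was not tested.

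None of the 9 genes passed the test. At 2-fold and an unadjusted p up to 0.05, 0 of 9 genes were called higher, beside 5.63% of all 17960 genes, and 0 of 9 lower, beside 2.76%. Of their 17 probes 0 were called either way, beside 4.44% of all probes called higher and 4.18% called lower. At an unadjusted p of 0.05 alone, 0 of 9 passed, beside 9.47% of all genes. After Benjamini-Hochberg adjustment over all 45598 probes 0 probes on the array (0%) passed 0.05, and the smallest adjusted p was 0.0977. The median ratio of the 9 genes was 0.21, beside -0.00 over all genes.

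The 9 genes went different ways in different preparations, as the plot of their levels shows. In preparation 1 the replicating sample was the higher of the pair for 8 of 9 genes (54.0% of all genes), in preparation 2 for 5 of 9 (52.2%), and in preparation 3 for 4 of 9 (43.6%). The ratio was largest in size in preparation 2 for 7 of 9 genes, beside 63.1% of all genes. The replicating arrays were the more alike: the SD of the 3 replicating values was below that of the 3 quiescent values for all 9 genes, which held for 86.4% of all genes on this array. With preparation 2 set aside, replicating arrays 1 and 3 lay closer together than quiescent arrays 1 and 3 for 8 of 9 genes, beside 78.6% of all genes.

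**Figure D1:**
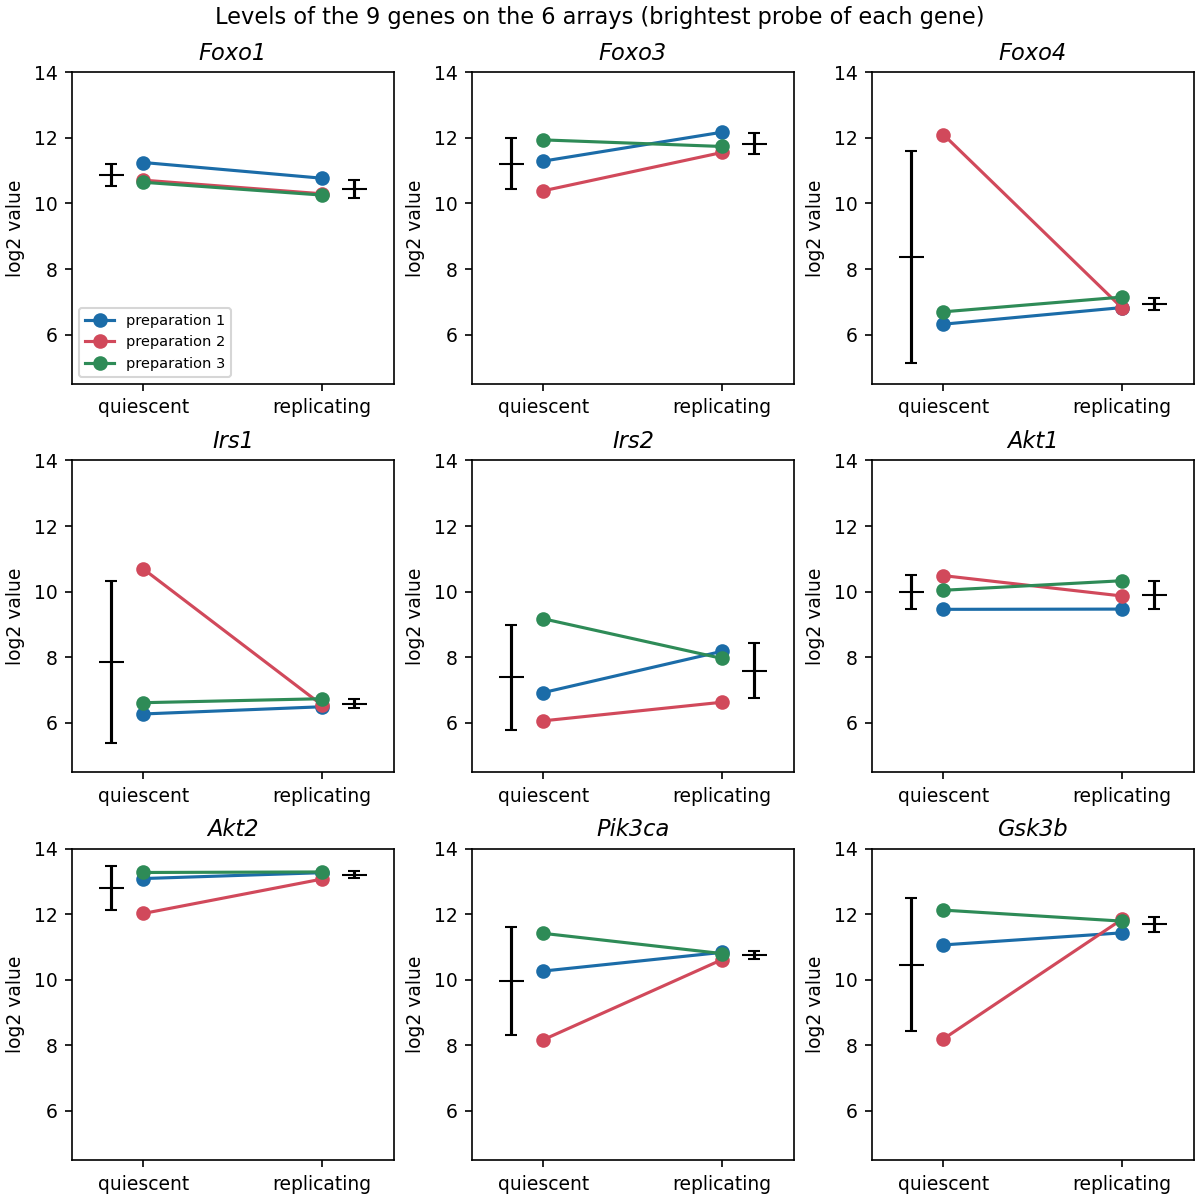
Log2 values of the 9 genes (brightest probe of each) on the 6 arrays, with a line for each islet preparation from its quiescent to its replicating sample. Black marks give the mean ± SD of 3 arrays; Foxo1 is lower at the replicating end of all 3 lines, and the quiescent sample of preparation 2 lies far above the others for Foxo4 and Irs1 and far below them for Pik3ca and Gsk3b.

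Irs1, the adaptor that couples the receptors to PI3-kinase, read 6.27, 10.69 and 6.61 in quiescent cells of preparations 1, 2 and 3, and 6.49, 6.54 and 6.73 in replicating cells. The quiescent sample of preparation 2 was the only high one, and the other 5 arrays lay within a narrow band near the background, the probe being well above background on 2 of 3 replicating arrays. The groups overlapped. The mean ratio was -1.27 (SE 0.95, adjusted p = 0.542 by limma), and without preparation 2 it was 0.17. The probe lies at chr9:81585685-81585744 of the rn4 build, on the minus strand. Its first 30 bases are shown, with those of the Foxo4 probe, because both gave the same pattern over the arrays.
Irs1: gagtgggaagaatacttaaaacaaggctaa
Foxo4: ggcgtgaaagaaggaaggatttagggtagt

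Irs2, the adaptor most closely tied to β-cell growth and survival, was measured at 6.92, 6.06 and 9.17 in quiescent cells and at 8.18, 6.63 and 7.96 in replicating cells. Replicating cells were higher in preparations 1 and 2 (ratios 1.26 and 0.57) and lower in preparation 3 (-1.21), and the groups overlapped. The mean ratio was 0.21 (SE 0.55, 95% interval -1.19 to 1.60, adjusted p = 0.874), and it was -0.32 without preparation 1.

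Pik3ca, which encodes the p110α catalytic subunit of PI3-kinase, had 3 probes that differed among themselves. The brightest read 10.27, 8.17 and 11.42 in quiescent cells and 10.84, 10.62 and 10.80 in replicating cells. The quiescent values thus spread on both sides of a tight replicating group. Its mean ratio was 0.80 (SE 0.63, adjusted p = 0.561), from 0.57, 2.44 and -0.62 in the 3 preparations, and it was -0.02 without preparation 2. A probe that starts 234 bases upstream gave ratios of 0.49, -0.34 and -0.24, with a mean of -0.03 (SE 0.34). The third, 2474 bases downstream of the brightest, gave 0.39, 1.39 and -0.16, with a mean of 0.54 (SE 0.41). Over the 6 arrays the brightest probe had r = 0.983 with the downstream probe and r = 0.558 with its close upstream neighbour, so probes near each other were not the ones most alike. The first 30 bases of the neighbouring pair, at chr2:118669382-118669441 and chr2:118669148-118669207 of rn4 on the plus strand, show where the readings part.
Pik3ca, brightest: gtacacgcaaacagggtttgatagcactaa
Pik3ca, upstream: aatgaatgacgcacatcatggtggctggac

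Akt1, the AKT kinase expressed in most tissues, showed the smallest difference of the 9 genes. It read 9.46, 10.49 and 10.04 in quiescent cells and 9.47, 9.87 and 10.33 in replicating cells, and the groups overlapped throughout. The ratios were 0.01, -0.62 and 0.29, with a mean of -0.11 (SE 0.35, 95% interval -0.99 to 0.77, adjusted p = 0.897). Without preparation 2 the mean was 0.15.

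Akt2, the AKT kinase best known for insulin-stimulated glucose uptake, read 13.09, 12.02 and 13.27 in quiescent cells and 13.27, 13.07 and 13.29 in replicating cells. Only the quiescent sample of preparation 2 was clearly lower than the rest. The ratio was above 0 in all 3 preparations (0.18, 1.05 and 0.02), as for 17.6% of all genes, and the mean was 0.42 (SE 0.36, adjusted p = 0.591). The second probe, 2173 bases upstream, did not share that sign in preparation 3, with 0.11, 1.15 and -0.22 (mean 0.35, SE 0.40).

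Gsk3b, the kinase that AKT inhibits and that restrains glycogen synthesis and cyclin D stability, was read by 5 probes. The brightest, which was also nearest the 3′ end, gave 11.06, 8.20 and 12.12 in quiescent cells and 11.43, 11.85 and 11.79 in replicating cells. Quiescent cells of preparation 2 were low and those of preparation 3 high, on either side of the replicating samples. The mean ratio was 1.23 (SE 0.82, adjusted p = 0.515) and it was 0.02 without preparation 2. A probe 524 bases away gave ratios of 1.04, 3.33 and 0.29, and there all 3 replicating values lay above all 3 quiescent values. Its mean ratio was 1.55 (SE 0.64, unadjusted p = 0.0598 by limma, adjusted p = 0.475), the lowest p of any of the 17 probes, and groups did not overlap in this direction for 9.01% of all probes. The 3 remaining probes, 10886, 13223 and 22466 bases from the first on the genome, had means of 0.31, 0.44 and 0.41, each with a ratio below 0 in preparation 3. In preparation 2, the only one in which all 5 ratios were above 0, the ratios ran from 0.55 to 3.65. The first 30 bases of the pair at the 3′ end, at chr11:64279828-64279887 and chr11:64280352-64280411 of rn4 on the minus strand, are given since they had the largest mean ratios of the gene.
Gsk3b, brightest: gtgcaaatctgtcttgatataaaggaaaag
Gsk3b, 524 bases upstream: tgaacacgtttctcccctgtatgaaaagta

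**Figure D2:**
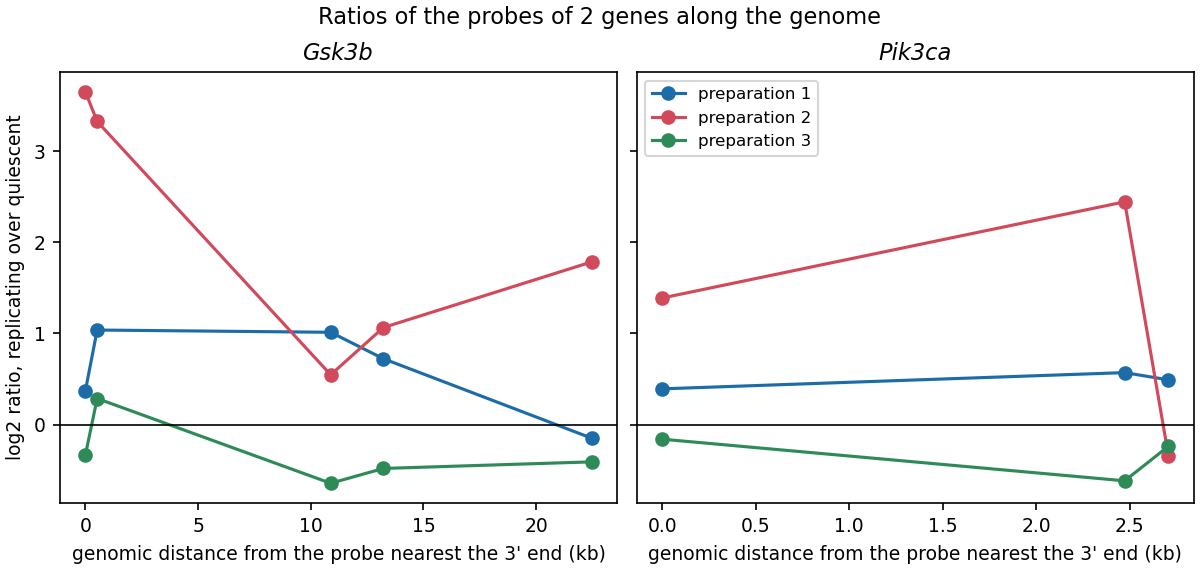
Log2 ratios, replicating over quiescent, of the 5 Gsk3b and 3 Pik3ca probes in each islet preparation, against genomic distance in kb from the probe nearest the 3′ end of the gene. Preparation 2 gives ratios of 3.65 and 3.33 at the 3′ end of Gsk3b and 0.55 to 1.78 further upstream, and its Pik3ca ratios change from 2.44 to -0.34 over 234 bases.

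The array files do not say which part of a gene a probe lies in. Of the 17 probes, 8 hold a stop codon in each of the 3 reading frames of their strand and cannot lie wholly in coding sequence, and these include the brightest probes of Pik3ca and Gsk3b and the single probes of Irs1 and Foxo4.

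Foxo1, the FoxO factor most studied in β-cells, was lower in replicating cells of every preparation, but the difference did not pass the test. Quiescent cells read 11.25, 10.71 and 10.65 and replicating cells 10.77, 10.29 and 10.25. The groups overlapped, because preparation 1 was the highest in both, while within each preparation the replicating sample was the lower. The ratios were -0.48, -0.42 and -0.39, with a mean of -0.43, or 1.35-fold lower (SE 0.30, 95% interval -1.20 to 0.34, unadjusted p = 0.213 and adjusted p = 0.527 by limma). A ratio below 0 in all 3 preparations was found for 18.6% of all genes. The 3 ratios were close to each other: their SD was 0.0456, and 92 of 17615 genes with a value on every array (0.522%) had an SD as low, where the median SD was 0.668. This spread was looked at after the values were seen. The SE from those 3 ratios alone was 0.0263, and limma's SE was 11.5 times as large because it draws the variance of each probe towards that of all probes. An exact two-sided sign-flip test over the 3 preparations gave p = 0.25, the smallest that 3 pairs allow. When arrays were scaled to their 75th percentile in place of quantile normalization, Foxo1 kept a ratio of -0.40, but the median of all genes moved to -0.48 for the scanner's processed signal and to -0.28 for normexp values, and relative to that median Foxo1 stood at 0.08 and -0.12. The direction of Foxo1 relative to other genes therefore turned under 1 of these scalings.

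The Foxo1 probe lies at chr2:141201740-141201799 of rn4 on the plus strand, and its first 30 bases identify the single reading on which these values rest.
Foxo1: aaagagttgctgacttctgactctcctccc

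The genes whose levels were most like Foxo1 over the 6 arrays were Ncmap (r = 0.978), Pfkfb3 (r = 0.978), LOC103690877 (r = 0.976), Myo7a (r = 0.965) and LOC102553798 (r = 0.960), out of 14643 genes well above background on every array. All 5 had ratios below 0 in each preparation, as 18.6% of all genes did, with means from -0.49 to -0.28. They were chosen by likeness to Foxo1 over the same arrays, so a shared direction follows in part from that choice. An r of 0.95 was reached by 8 genes with Foxo1, 9 with Akt1 and 121 with Irs2, and by 556 to 1603 genes with each of the other 6.

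Foxo3, a FoxO factor known for its part in stress resistance and quiescence, had ratios on the other side of 0. Its brightest probe read 11.29, 10.39 and 11.94 in quiescent cells and 12.17, 11.56 and 11.74 in replicating cells. Replicating cells were higher in preparations 1 and 2 (0.88 and 1.17) but not in preparation 3 (-0.20), and the mean ratio was 0.62 (SE 0.40, adjusted p = 0.509). The second probe, 3478 bases upstream, gave 0.77, 0.98 and 0.25, with no overlap of the groups (9.01% of all probes) and a mean of 0.67 (SE 0.33, unadjusted p = 0.0978 by limma, adjusted p = 0.475). Both probes thus had means above 0, and neither passed the test.

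Foxo4, the X-linked FoxO factor, read 6.32, 12.10 and 6.70 in quiescent cells and 6.83, 6.81 and 7.15 in replicating cells. As for Irs1, 1 high array, the quiescent sample of preparation 2, made the mean ratio of -1.44 (SE 1.24, 95% interval -4.59 to 1.70, adjusted p = 0.584), and the groups overlapped. Without preparation 2 the ratio was 0.48. Over the 6 arrays Foxo4 and Irs1 had r = 0.999, which rests on that array. A ratio of -4 or below in preparation 2 with ratios within 1 of 0 in both others was found for 128 of 17710 genes (0.723%). Probes with the same GC content as the Foxo4 probe (45.0%) had a median ratio of -0.08 in preparation 2, and those with that of the Irs1 probe (36.7%) 0.09. The part of array quality in these readings was not tested.

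**Figure D3:**
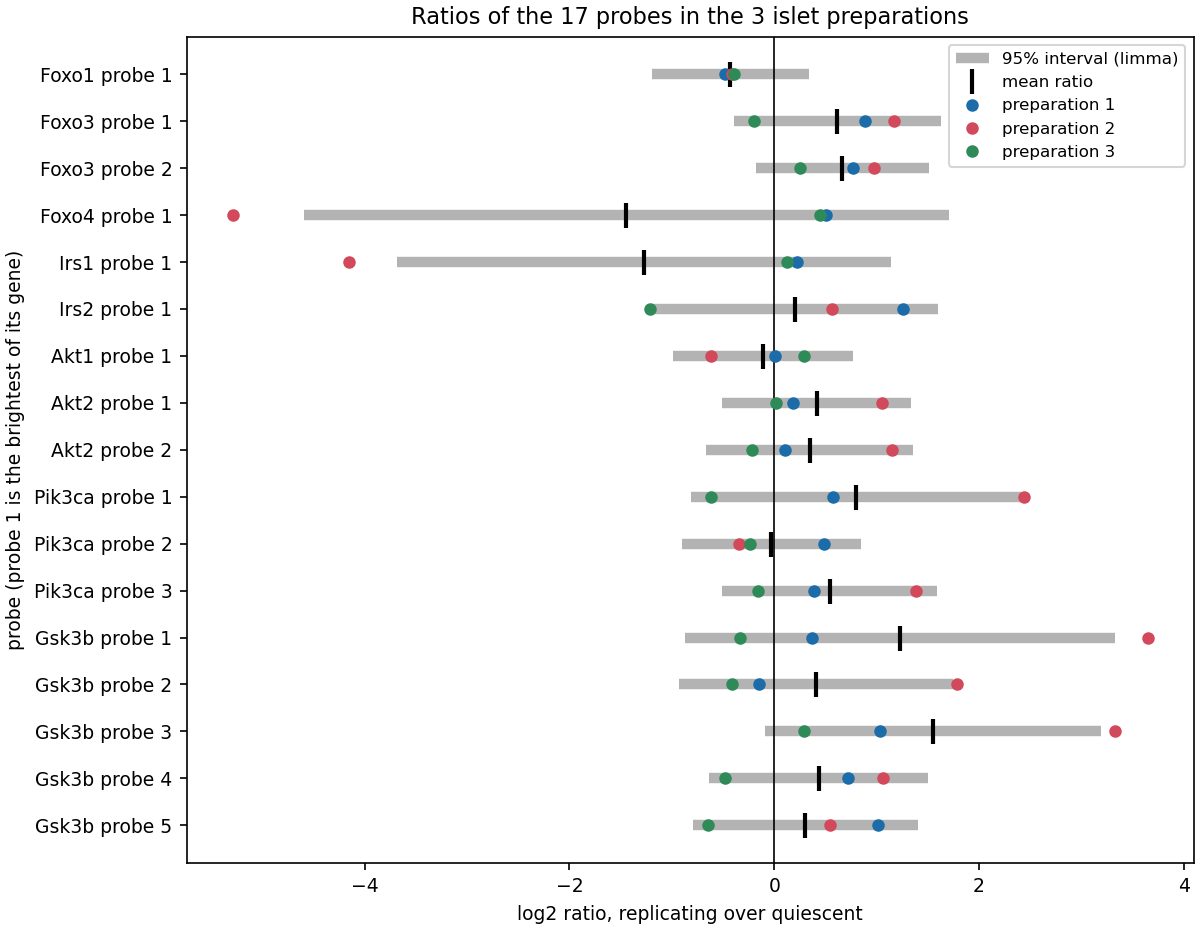
Log2 ratios, replicating over quiescent, of all 17 probes in the 3 islet preparations (coloured points), with the mean (black bar) and limma's 95% interval (grey). Every interval covers 0, and the 3 points lie closest together for Foxo1.

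Quiescent array 2 was the lowest of the 6 arrays for 12 of the 17 probes, beside 35.2% of all probes, and the highest for 3 of 17, beside 33.3%. Foxo4, Irs1 and Akt1 were the 3 for which it was highest. Leaving out preparation 2 turned the sign of Foxo4, Irs1, Akt1 and Pik3ca, as the plot of ratios under each setting shows.

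**Figure D4:**
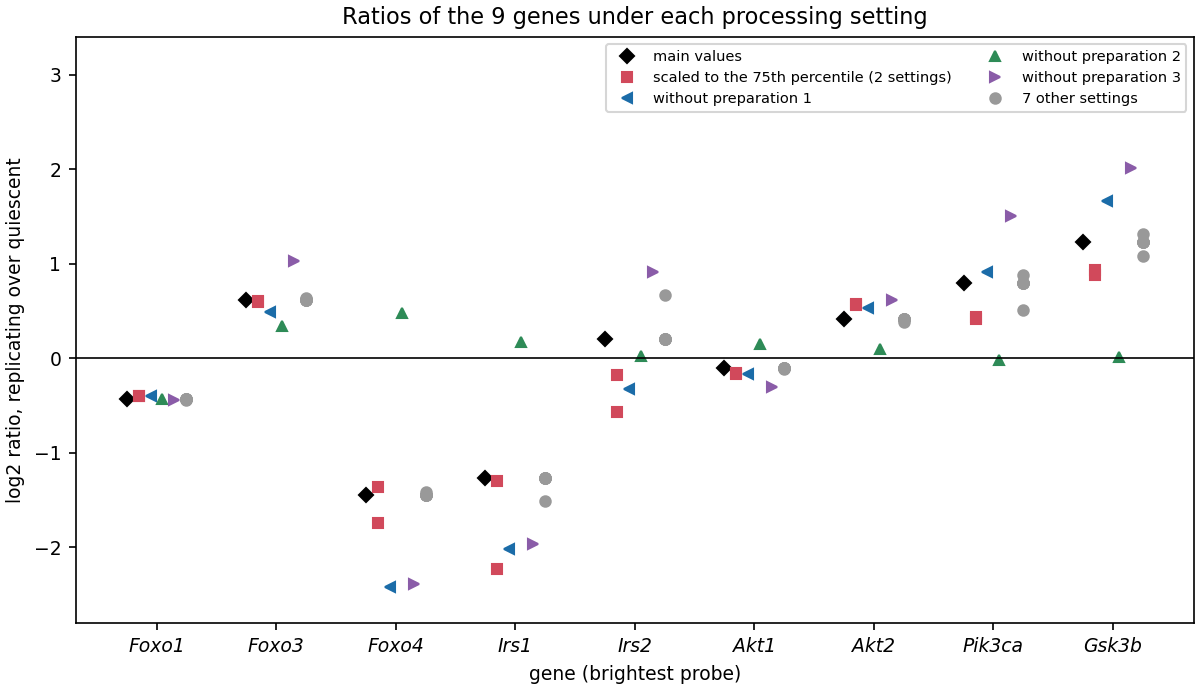
Log2 ratios, replicating over quiescent, of the brightest probe of each of the 9 genes in the reported values (black) and under 12 other settings. Foxo1 stays between -0.45 and -0.40 under all 12, while Foxo4 and Irs1 lie below 0 under all but the setting without preparation 2. Several settings, such as the filter on dim probes and the analysis without the block, could not move the ratio of any of these genes.

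Around the 9 genes, 57 further genes of the signalling arm were on the array in 6 lists, and by their brightest probes 0 of 57 were called, beside 5.63% of all genes called higher and 2.76% called lower. They comprised 14 receptors, ligands and adaptors, 8 brakes on the receptors, 7 PI3-kinase subunits, 7 phosphatases and AKT brakes, 6 AKT and GSK3 kinases and their partners, and 15 genes of the TSC and mTOR complexes. Of these, 43 had ratios above 0, beside 8969 of all 17960 genes, and 2 had an unadjusted p up to 0.05, beside 9.47% of all genes, and the medians of the 6 lists lay between 0.24 and 0.44. The insulin receptor Insr had a mean ratio of 0.46 (SE 0.33), with 0.45, 0.84 and 0.08 in the 3 preparations. A dimmer Insr probe gave 0.47, 0.10 and -0.22 (mean 0.12, SE 0.33). The IGF1 receptor Igf1r had 0.70 (SE 0.75), with 0.31, 2.79 and -0.99, and -0.34 without preparation 2. Its second probe read the other way in every preparation, with -0.10, -1.18 and 0.35 (mean -0.31, SE 0.41). Neither receptor passed the test.

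Further down the pathway, preparation 3 differed from the others, as it did over the whole array. Over all probes, its ratios had r = 0.164 and 0.0167 with those of preparations 1 and 2, which had r = 0.630 with each other. Pdpk1, the kinase that activates AKT, had 0.73, 2.10 and -0.02 (mean 0.94, SE 0.49). Pik3r1, the p85α regulatory subunit, had 0.95, 1.43 and 0.09 (mean 0.82, SE 0.39), with no overlap of the groups (10.6% of all genes in this direction). Its dimmest probe gave 1.31, 1.41 and 0.60 (mean 1.11, unadjusted p = 0.0219 by limma), which met the rule for a call at that probe. The remaining probe of Pik3r1 gave 0.65, 0.27 and 0.10 (mean 0.34, SE 0.32), and its groups overlapped. Mtor, the kinase of both mTOR complexes, had 0.81, 1.36 and 0.09 (mean 0.75, SE 0.38). By their brightest probes, Pdpk1, Pik3r1 and Mtor had adjusted p-values between 0.475 and 0.480 by limma. Without preparation 3 the number called higher among the 57 was 13 in place of 0. The share of all genes called higher was then 13.7% in place of 5.63%. Over all 101 pathway genes outside the 9, the median ratio was 0.45 in preparation 1, 0.74 in preparation 2 and -0.02 in preparation 3, where all genes had 0.08, 0.07 and -0.05.

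Among 18 genes that set the location, turnover or modification of FoxO proteins, 3 were called higher and 0 lower, beside 5.63% and 2.76% of all genes. Xpo1, the nuclear exporter, read 9.38, 9.86 and 9.69 in quiescent cells and 11.24, 11.43 and 10.76 in replicating cells, with no overlap (10.6% of all genes in this direction) and a mean ratio of 1.50 (SE 0.33). Ywhah, a 14-3-3 protein, had ratios of 1.64, 4.21 and 0.99 (mean 2.28, SE 0.68), also without overlap. Mdm2, a ubiquitin ligase, had 1.68, 3.36 and 0.30 (mean 1.78, SE 0.63), with overlap. The adjusted p of each was 0.475. Without preparation 1 none of the 3 was called, with ratios of 1.32 for Xpo1, 2.60 for Ywhah and 1.83 for Mdm2, and 1.59% of all genes were called higher. Without preparation 2 the ratio of Ywhah was 1.32, still called, and that of Mdm2 0.99, not called, and Mdm2 was also not called with the processed signal (1.44). Foxo6 and, among FoxO targets, Fasl were listed but not analysed here.

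Among 26 genes that FoxO factors are known to activate in various tissues, 6 were called higher and 0 lower, beside 5.63% and 2.76% of all genes. Cdkn1a, the cyclin-dependent kinase inhibitor p21, read 10.45, 8.46 and 11.26 in quiescent cells and 11.77, 11.60 and 12.51 in replicating cells. All replicating values lay above all quiescent values, as for 10.6% of all genes, and the mean ratio was 1.91 (SE 0.49), with 3.27 (SE 0.83) at its second probe. Gadd45a, a growth arrest and DNA damage gene, read 11.22, 10.64 and 11.11 against 12.53, 12.57 and 12.47, again without overlap, with a mean of 1.54 (SE 0.33). Igfbp1, which binds IGFs, read 7.32, 6.84 and 7.51 against 9.61, 8.68 and 8.75, with a mean of 1.79 (SE 0.36). These 3 genes were called under all 12 alternatives.

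The other 3 were Pdk4, which inhibits pyruvate dehydrogenase, at 1.85 (SE 0.65), the stress gene Sesn3 at 1.53 (SE 0.41) and Txnip, which binds thioredoxin, at 1.57 (SE 0.48). Their groups did not overlap, as for 10.6% of all genes in this direction. Without preparation 1, when 1.59% of all genes were called higher, 3 of 26 were called, and Pdk4 (2.01), Sesn3 (1.41) and Txnip (1.51) were not among them. Pdk4 was also not called without preparation 2, at 0.98, and neither Pdk4 (1.58) nor Sesn3 (1.22) was called with the processed signal. Cdkn1b, which encodes the p27 cell cycle inhibitor, had ratios of 1.08, 3.85 and 0.14 (mean 1.69, SE 0.76) and was not called. The adjusted p of each called gene was 0.475 by limma. The median of the 26 genes was 0.37, and 19 of them lay above 0. The list holds genes that act in the cell cycle or in stress, and the cell cycle markers and markers of other cells given above moved with the same comparison, so that their part was not tested.

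**Figure D5:**
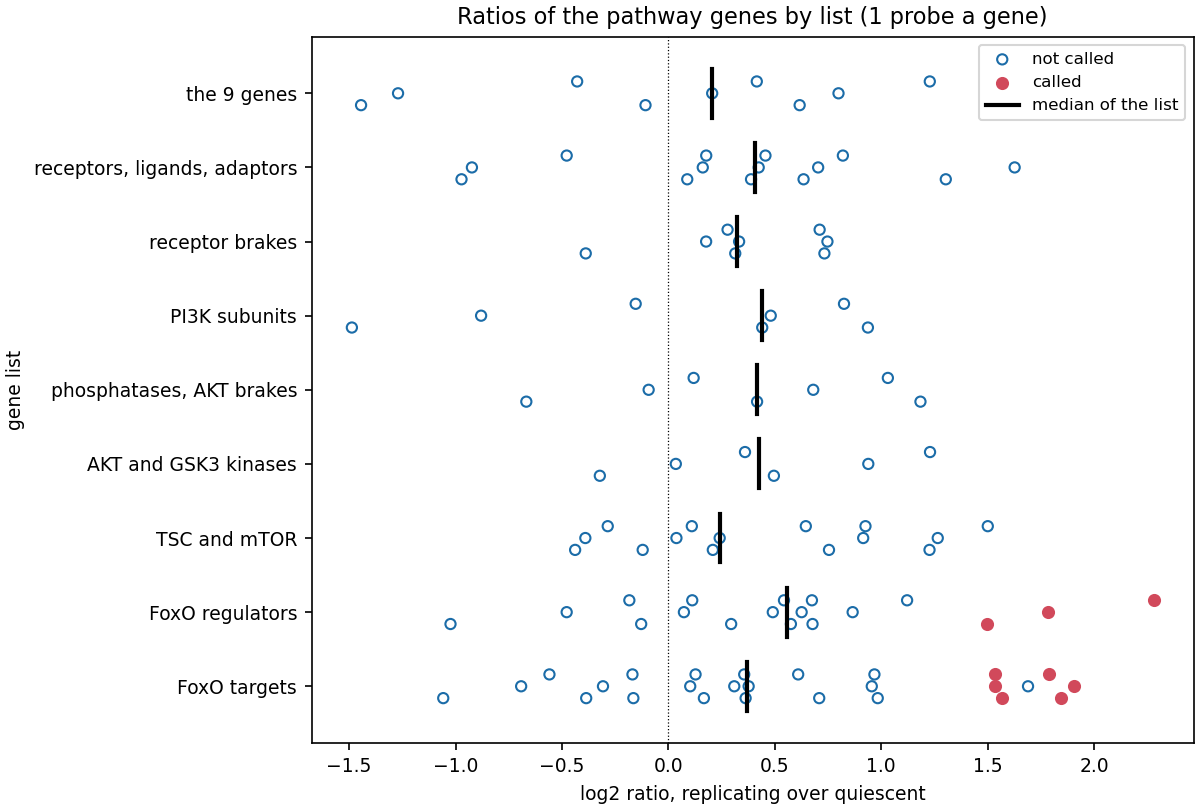
Log2 ratios, replicating over quiescent, of the 9 genes and of the genes of 8 pathway lists (1 brightest probe for each gene). Filled points are called genes (unadjusted p no higher than 0.05 and a change of 2-fold or more), black bars are list medians, and the 9 called genes all lie to the right, 3 among FoxO regulators and 6 among FoxO targets.

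Promoters were searched for letters known from FoxO binding. The search covered the 300 bases around each start (250 before and 50 after), from RefSeq on GRCr8, on both strands, for GTAAACA (reverse TGTTTAC), the core FoxO site, and CAAAACAA (reverse TTGTTTTG), a form of the insulin response element. Neither motif contains the other. GTAAACA was found in 1265 of all 33469 promoters (3.78%) and CAAAACAA in 748 (2.23%). Of the 9 genes, 7 had an entry, all but Foxo3 and Irs2, and 1 of them, Pik3ca, held GTAAACA, 157 bases before the start. The 50 bases after that start begin with ATG, so it may be the start of the coding sequence. Whether this window is a promoter was not tested. Of the 9 called genes, 8 had an entry, and Mdm2 held GTAAACA at 209 bases and Igfbp1 CAAAACAA at 121 bases before the start. In the FoxO target list, 21 genes had an entry, and 2 of them held GTAAACA (Bcl2l11 and Trim63) and 2 CAAAACAA (Ccng2 and Igfbp1), of which Igfbp1 alone was called by its brightest probe. A match is a description of the letters only. The windows of Pik3ca and of the called genes Mdm2 and Igfbp1 are printed with the match in capitals, from chr2:117147049-117147348 on the plus strand, chr7:55200742-55201041 on the minus strand and chr14:86261027-86261326 on the plus strand of GRCr8.
Pik3ca: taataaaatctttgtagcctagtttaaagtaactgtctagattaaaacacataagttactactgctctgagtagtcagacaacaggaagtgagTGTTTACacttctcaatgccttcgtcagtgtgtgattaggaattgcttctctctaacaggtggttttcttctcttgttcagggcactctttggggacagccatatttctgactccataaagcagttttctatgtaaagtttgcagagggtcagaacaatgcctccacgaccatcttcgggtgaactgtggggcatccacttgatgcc
Mdm2: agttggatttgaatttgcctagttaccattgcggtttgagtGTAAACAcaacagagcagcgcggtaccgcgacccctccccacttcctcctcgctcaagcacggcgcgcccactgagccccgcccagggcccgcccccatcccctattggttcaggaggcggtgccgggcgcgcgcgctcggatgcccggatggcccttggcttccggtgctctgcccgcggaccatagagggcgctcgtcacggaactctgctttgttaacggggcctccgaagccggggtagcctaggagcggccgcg
Igfbp1: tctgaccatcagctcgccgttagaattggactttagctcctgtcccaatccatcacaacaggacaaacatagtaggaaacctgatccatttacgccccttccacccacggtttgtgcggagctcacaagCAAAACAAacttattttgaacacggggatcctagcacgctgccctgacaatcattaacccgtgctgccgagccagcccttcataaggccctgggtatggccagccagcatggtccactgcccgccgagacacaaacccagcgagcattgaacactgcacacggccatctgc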

How the data were processed

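The 9 genes, the pathway lists and the tests were chosen with earlier results of these data known. Per the file headers, the arrays were read with Agilent Feature Extraction 10.7.3.1, which gave each spot an intensity and a local background, and probe positions are on rn4. RNA had been amplified over the whole transcriptome before labelling with 1 dye. The deposited log2 values, which the authors made with normexp and then quantile normalization, were used here. Values recomputed from the deposited intensity columns with normexp at an offset of 50 differed by at most 0.000245 on the log2 scale.

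Control spots were left out, outlier spots were set to missing and spots of a probe were averaged. A gene was represented by its brightest probe, and all probes of the 9 genes are given. Replicating and quiescent samples were compared with limma 3.58.1 in R 4.3.3 (with the data.table package, version 1.17.8) over all 45598 probes, with the preparation as a block, and p-values were adjusted by Benjamini-Hochberg over all probes. The block comes from the labels, which tie both samples of a pair to 1 pool of rats; deviations of paired samples from their group means had r = 0.0561, 0.242 and 0.258. Named genes were the 9 genes, pathway genes called, others listed by name (Insr, Igf1r, Pik3r1, Pdpk1, Mtor, Cdkn1a, Cdkn1b), the genes most like Foxo1, and markers. A listed gene is not reported here.

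The alternatives were 4 other normalizations or offsets, a filter on dim probes, outlier spots kept, no block, an intensity trend, the median over probes and each preparation left out. The precision is limited by 3 arrays a group. Only sequences, positions and RefSeq symbols were taken from the reference tables.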

Additional observations from a re-analysis of the deposited data

How the results depend on the processing

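Foxo1, Foxo3, Akt2 and Gsk3b kept their direction under all 12 alternatives and none of them was called under any, with ratios of -0.45 to -0.40, 0.34 to 1.03, 0.10 to 0.61 and 0.02 to 2.01. Not all alternatives could move a ratio. For Foxo1, with 1 probe, the filter, the outlier spots, the block, the trend and the median over probes left it at -0.43. Relative to the median of all genes, Foxo1 turned to 0.08 with the processed signal scaled to the 75th percentile. Leaving out 1 preparation at a time gave -0.45 to -0.40 for Foxo1, 0.34 to 1.03 for Foxo3, -2.42 to 0.48 for Foxo4, -2.02 to 0.17 for Irs1, -0.32 to 0.91 for Irs2, -0.31 to 0.15 for Akt1, 0.10 to 0.61 for Akt2, -0.023 to 1.51 for Pik3ca, 0.02 to 2.01 for Gsk3b and -0.34 to 1.55 for Igf1r. It gave 0 to 13 genes higher and 0 to 1 lower in the 6 signalling lists, 0 to 4 higher and 0 to 1 lower among FoxO regulators, and 3 to 7 higher and 0 to 1 lower among FoxO targets. The sign turned without preparation 2 for Foxo4 (0.48), Irs1 (0.17), Akt1 (0.15), Pik3ca (-0.023) and Igf1r (-0.34), and without preparation 1 for Irs2 (-0.32).

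With normexp values scaled to the 75th percentile, Foxo4 (-1.36, unadjusted p = 0.0443 by limma) and Irs1 (-1.30, unadjusted p = 0.0380) were called, so that 2 members were lower, beside 9.89% of all genes called lower in that setting, Irs2 turned to -0.17 and Insr to -0.0083, the signalling lists had 2 genes higher and 3 lower, the regulators 1 lower, and 719 probes passed an adjusted p of 0.05. With the processed signal scaled likewise, Irs2 turned to -0.57 and Insr to -0.074, and the signalling lists had 1 gene lower. These scalings left 21.4% and 17.2% of calls higher over all probes, against 51.5% in the reported values, and the cause was not tested. The signalling lists had 1 gene higher with an offset of 0 and with the filter on dim probes, and 2 with an intensity trend, under which 61 probes passed the adjusted p.

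Without the pairing of samples as a block, Foxo1 had the same ratio of -0.43 (adjusted p = 0.558 by limma) and no call of a member changed. Mdm2 was no longer called (unadjusted p = 0.0779), and 99 probes of the whole array passed an adjusted p of 0.05, against 0 with the block. Leaving out preparation 2 let 84 probes pass.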
